A study of Mus musculus with 4 samples.

Results

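Imprinted genes are those of which only the copy inherited from the mother, or only the copy from the father, is transcribed. The genes described here were 36 genes of 16 imprinted loci, among them the noncoding RNA genes Meg3 and Rian. A gene was a member if a probe set of the array was annotated to it and to no other gene, and 29 of the 36 were found in this way, of 19938 genes measured. Each of the 29 had 1 probe set, and no filter on low values was applied. Mirg, Snrpn, Ube3a and Gnas were listed only on probe sets that name several genes, and H19, Kcnq1ot1 and Peg13 were not analysed here, because the annotation used lists no probe set for them. The set was chosen by membership in these loci and on the measured difference of Meg3 and Rian between the 2 groups of mice. All differences between the groups are therefore given as a description. They support no statement beyond the values themselves.

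The cells came from the skin of mice at postnatal day 5 and were sorted as dermal papilla cells. The papilla is a cluster of mesenchyme enclosed by the hair bulb, and it signals to the hair-forming epithelium. The sort took cells carrying both a green fluorescent protein reporter of Sox2 and the surface protein integrin alpha 9. All samples of both groups were thus selected through the Sox2 locus, and the reporter was part of the gate in the controls too. The control group was heterozygous for Sox2 (Het, 2 arrays), and the other was a conditional knockout of Sox2 (cKO, 2 arrays); the labels name neither the Cre driver nor the sex of the animals, and do not say whether an array holds 1 animal or a pool. Each array gave 28853 probe set values on an assumed log2 scale, from which each probe set's own median had already been subtracted. A value of 0 is therefore the middle of the 4 arrays, the middle pair of arrays lies at equal distances on either side of 0, and no expression level or presence can be read. For the same reason the identity of the cells could not be checked against the levels of papilla markers. Fewer cells of a type and less RNA per cell cannot be told apart in such sorted bulk samples, and the arrays do not tell the maternal from the paternal copy.

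An imprinted locus usually holds several genes under 1 imprinting control region, a stretch of DNA that is methylated on the copy from a single parent. Genes read from the maternal copy often restrain growth, and genes read from the paternal copy often promote it. Many imprinted genes are highly transcribed in fetal and neonatal mesenchyme and decline after birth. In the Dlk1-Meg3 domain of mouse chromosome 12 the maternal copy gives the noncoding RNAs Meg3, Rian and Mirg, which are thought to be read as a chain in the same direction and which carry snoRNAs and miRNAs. The paternal copy gives the protein genes Dlk1, Rtl1 and Dio3.

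The start regions of Meg3 and Rian are shown because these genes had the largest differences, and that of Peg3 because it is shared with a neighbour that did not follow it. Each window holds 300 bases, most of them before an annotated start and the last ones after it, as RefSeq gives it for GRCm38.p6, 5′ to 3′ in the direction of the gene. Capitals mark matches on either strand to TGCCGC, the core of the sequence bound by the imprint-keeping factor ZFP57, to CATTGT, a core of SOX binding sites, and to TATAAA, the TATA box. The Meg3 window shown, the first of 2 in the table, lies at chr12:109540746-109541045 on the plus strand, the Rian window at chr12:109603695-109603994 on the plus strand, and the Peg3 window at chr7:6730370-6730669 on the minus strand.
Meg3: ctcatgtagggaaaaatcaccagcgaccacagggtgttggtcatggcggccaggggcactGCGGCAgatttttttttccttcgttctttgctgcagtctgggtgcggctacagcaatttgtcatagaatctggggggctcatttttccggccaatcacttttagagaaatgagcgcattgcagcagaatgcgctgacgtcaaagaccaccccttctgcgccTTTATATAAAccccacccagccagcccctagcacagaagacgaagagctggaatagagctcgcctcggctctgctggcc
Rian: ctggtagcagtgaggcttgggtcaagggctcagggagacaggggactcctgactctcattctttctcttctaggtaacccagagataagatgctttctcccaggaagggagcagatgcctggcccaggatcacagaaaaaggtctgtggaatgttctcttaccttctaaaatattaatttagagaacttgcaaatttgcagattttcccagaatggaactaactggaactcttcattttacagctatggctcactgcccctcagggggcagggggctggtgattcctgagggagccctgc
Peg3: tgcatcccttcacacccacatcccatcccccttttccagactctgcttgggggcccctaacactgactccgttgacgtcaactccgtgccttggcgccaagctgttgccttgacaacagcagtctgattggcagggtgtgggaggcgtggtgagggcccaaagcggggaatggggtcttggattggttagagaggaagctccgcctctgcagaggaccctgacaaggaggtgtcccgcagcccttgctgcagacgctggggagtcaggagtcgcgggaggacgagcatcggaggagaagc
The Meg3 window printed held 13 CpG dinucleotides, 1 match to TGCCGC on the opposite strand and 2 overlapping matches to TATAAA, 1 on each strand. The Rian window held 0 CpG dinucleotides and no match to any of these motifs. The Peg3 window held 13 CpG dinucleotides and no match, and 263 of its 300 bases are also in the window of Usp29, which is read the other way. Of all 32851 windows in the table, 11.6% held TGCCGC, 12.6% CATTGT and 13.6% TATAAA, and their median was 7 CpG dinucleotides. The table held 35 windows for 24 of the 29 genes, with a median of 12 CpG dinucleotides. They include a second window of Meg3, at chr12:109545148-109545447 on the plus strand, with 1 CpG dinucleotide and no match to the motifs. Of these 35, 9 held TGCCGC (25.7%), 3 held CATTGT (8.57%) and 8 held TATAAA (22.9%). Several windows belong to the same gene and overlap, so they are not separate observations. The CATTGT matches were in windows of Igf2, Ddc and Slc38a4. A match is a run of letters and not a measured binding site.

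Meg3, a noncoding RNA best known as a suppressor of growth, was lower in both cKO arrays. It stood at 0.57 in Het replicate 1 and 0.47 in Het replicate 2, and at -0.47 in each of the cKO arrays. The arrays of a group lay close together and the groups lay far apart. Subtracting the Het mean from the cKO mean gave -0.99 ± 0.05 (SE, n = 2 arrays per group). This is a 1.99-fold lower value, with an SD of 0.07 in Het and 0.01 in cKO. With any 1 array left out it stayed between -1.04 and -0.94. Of all genes, 0.14% had a difference of at least this size in either direction. The set was chosen on this very difference, so the share and the range are description only.

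Rian, the noncoding RNA that hosts a cluster of C/D snoRNAs, was also lower in both cKO arrays, with a wide gap between the controls. Het replicate 1 was at 0.26 and Het replicate 2 at 1.11, whereas cKO replicate 1 was at -0.26 and cKO replicate 2 at -0.32. The difference was -0.98 ± 0.32 (SE, n = 2 arrays per group), a value 1.97-fold lower in cKO. Het replicate 2 carried much of it: without this array the difference was -0.55, and without Het replicate 1 it was -1.40. A second probe set names Rian together with the snoRNA AF357355 and was not used for the gene. It stood at 0.04 and 1.53 in Het and at -0.04 and -1.09 in cKO, so Het replicate 1 and cKO replicate 1 differed by little on it. Its difference was -1.35 ± 0.70 (SE).

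Among the protein genes of the domain, Dlk1, which encodes a membrane protein with EGF-like repeats that holds back adipocyte formation, was lower by a small and even amount. Each Het array was at 0.09, cKO replicate 1 was at -0.16 and cKO replicate 2 at -0.09. The difference was -0.21 ± 0.04 (SE), or 1.16-fold lower, and between -0.25 and -0.18 with 1 array left out. Rtl1, a gene derived from a retrotransposon and needed in the placenta, had a difference of 0.00 ± 0.06. Dio3, the deiodinase gene whose enzyme inactivates thyroid hormone, had a difference of -0.01 ± 0.05. All 4 values of Rtl1 and of Dio3 lay between -0.05 and 0.04, and their groups overlapped.

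The miRNA probe sets of the same domain had small differences on these arrays. In the order of the genes, 50 probe sets lay between Dlk1 and Dio3, and 40 of them named 1 miRNA gene each. Their differences ran from -0.23 to 0.18 with a median of 0.02. Of the 40, 1 was lower in cKO with groups that did not overlap and 15 were higher, where 15.4% of all 28853 probe sets were lower and 18.9% higher by this rule. All 4 values lay within 0.1 of 0 in 29 of the 40. In centred values an unchanged RNA and one that was not detected cannot be told apart. The probe sets are annotated to miRNA genes, and the sources used here do not state whether they read the mature forms. The difference between these probe sets and those of Meg3 and Rian was not tested.

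3 miRNAs show what the chain carries. miR-127 is read opposite to Rtl1, whose transcript it cuts. miR-666 had the largest difference of the 40 in either direction. miR-410 shares a probe set with Mirg. The mature forms are given from RefSeq for GRCm38.p6, 5′ to 3′, with the seed, bases 2 to 8, in capitals. They lie on the plus strand at chr12:109592888-109592909, chr12:109717103-109717124 and chr12:109743764-109743784.
mmu-miR-127-3p: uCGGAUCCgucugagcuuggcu
mmu-miR-666-5p: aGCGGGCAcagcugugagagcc
mmu-miR-410-3p: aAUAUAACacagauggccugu
Their seeds differ from each other. The probe set of Mir127 had a difference of 0.05. That of Mir666 stood at 0.06 and 0.22 in Het and at -0.12 and -0.06 in cKO, a difference of -0.23, and was the 1 miRNA probe set lower with separate groups. The probe set naming Mirg and Mir410 stood at 0.11 and -0.06 in Het and at -0.03 and 0.03 in cKO, so its groups overlapped. Among 80 mature miRNAs of the domain with a listed sequence there were 77 different seeds, and each of the 3 seeds that recurred was shared by a pair of miRNAs. Of the noncoding RNA probe sets that follow Rian in gene order, DQ267102 stood at 0.25 and -0.01 in Het and at 0.01 and -0.70 in cKO, while DQ267101 stayed between -0.03 and 0.01.

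**Figure D1:**
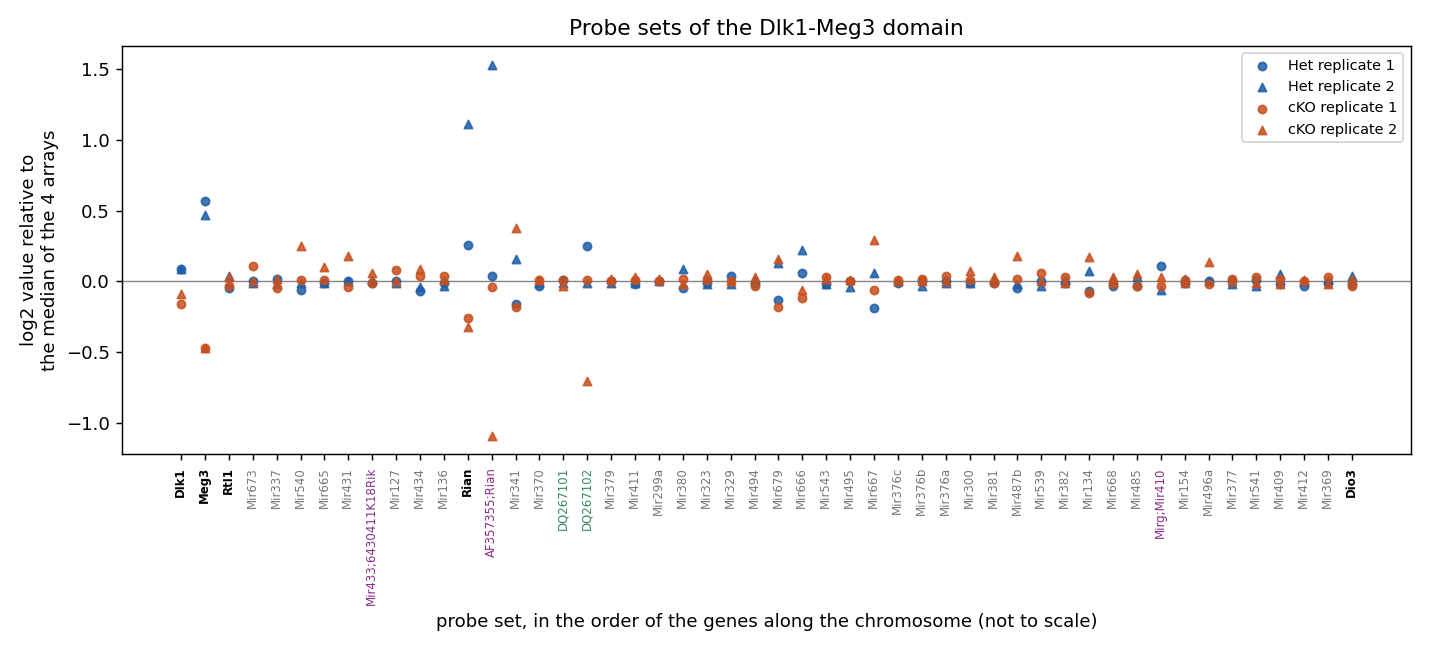
Centred log2 values of the 50 probe sets of the Dlk1-Meg3 domain in gene order, with Het arrays in blue, cKO arrays in orange, circles for replicate 1 and triangles for replicate 2. Names in bold black are members, in grey miRNAs, in purple probe sets that name several genes and in green other noncoding RNAs; Meg3 and the Rian probe sets have the widest spread, and most miRNA probe sets lie within 0.1 of 0.

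The Igf2-H19 and Igf2r-Airn loci control the growth factor IGF2 and the receptor that clears it. Igf2 stood at -0.02 and 0.02 in Het and at 0.56 and -0.02 in cKO. Only cKO replicate 1 was high: the difference of 0.27 ± 0.22 (SE) was -0.01 without that array and 0.56 without cKO replicate 2. Igf2r, whose product takes IGF2 to the lysosome, stood at 0.33 and 0.04 in Het and at -0.04 and -0.35 in cKO. The groups did not overlap, and the difference was -0.38 ± 0.16 (SE), or 1.3-fold lower. It was -0.24 without Het replicate 1 and -0.22 without cKO replicate 2. Airn, the antisense RNA that silences Igf2r on the paternal copy, stood at -0.10 and 0.36 in Het and at 0.10 and -0.49 in cKO. Its groups overlapped, and its difference of -0.33 ± 0.28 (SE) was -0.04 without cKO replicate 2, -0.10 without Het replicate 2, -0.56 without Het replicate 1 and -0.62 without cKO replicate 1. Airn and Igf2r overlap on opposite strands, and the sources used here do not state whether the labelling kept the strands apart.

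In the Kcnq1 locus all 3 genes found lay near 0. Cdkn1c, which encodes the cell cycle inhibitor p57, had a difference of -0.08 ± 0.05 with groups that did not overlap. Phlda2, a gene that limits placental growth, was at 0.01 and the trophoblast factor gene Ascl2 at -0.02, with overlapping groups. In the Peg3 locus the zinc finger gene Peg3 stood at 0.20 and 0.03 in Het and at -0.03 and -0.63 in cKO. The difference of -0.45 ± 0.24 (SE), or 1.37-fold lower, rested on cKO replicate 2: without it the difference was -0.15, and without cKO replicate 1 it was -0.75. Usp29, which shares the start region printed above and encodes a deubiquitinase, was at 0.02 ± 0.05. Zim1, the maternally expressed zinc finger gene next to them, stood at -0.06 and 0.25 in Het and at 0.06 and -0.11 in cKO, with overlapping groups and a difference of -0.12.

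In the Snrpn locus, known from Prader-Willi and Angelman syndromes, differences were small. Ndn, which encodes the growth restraining protein necdin, stood at 0.00 in both Het arrays to 2 decimals and at 0.12 and -0.28 in cKO, so the cKO arrays fell on either side of the controls. Peg12 had a difference of -0.10 ± 0.05 with groups that did not overlap. Magel2 was at -0.01 and Mkrn3, a ubiquitin ligase gene that restrains puberty, at 0.00. The probe set naming Snrpn and Snurf stood at 0.13 and -0.13 in Het and at 0.13 and -0.29 in cKO. The probe set naming Ube3a also names 3 other genes and had a difference of 0.05.

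In the Peg10-Sgce locus the paternal genes Sgce and Peg10 start close to each other and run in opposite directions. Sgce, the gene of epsilon-sarcoglycan, stood at 0.50 and 0.07 in Het and at -0.07 and -0.14 in cKO. Het replicate 1 was the high array, and the difference of -0.39 ± 0.17 (SE) was -0.18 without it and -0.61 without Het replicate 2. Peg10, another gene derived from a retrotransposon, stood at 0.24 and -0.05 in Het and at -0.16 and 0.05 in cKO, with overlapping groups and a difference of -0.15. Asb4, the maternally expressed gene of this locus, was the 1 member higher in cKO with separate groups, at a difference of 0.06 ± 0.03.

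Grb10 encodes an adaptor that dampens insulin and IGF1 receptor signals, and its expressed copy depends on the tissue. It stood at 0.41 and -0.16 in Het and at 0.16 and -0.63 in cKO. The groups overlapped, and the difference of -0.36 ± 0.37 (SE) ran from -0.76 without cKO replicate 1 to 0.03 without cKO replicate 2, with -0.65 without Het replicate 2 and -0.08 without Het replicate 1. Its neighbour Ddc, the gene of dopa decarboxylase, was at 0.02 ± 0.04.

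The other loci gave 1 gene each. Plagl1, a zinc finger factor known to regulate other imprinted genes, stood at 0.15 and 0.27 in Het and at -0.15 and -0.38 in cKO. Its difference of -0.48 ± 0.11 (SE), or 1.39-fold lower, stayed between -0.59 and -0.36 with 1 array left out. Nnat, the neuronatin gene, stood at 0.52 and 0.01 in Het and at -0.04 and -0.01 in cKO. Het replicate 1 alone was high, and the difference of -0.29 ± 0.20 (SE) was -0.03 without it and -0.55 without Het replicate 2. Impact, a regulator of translation under amino acid shortage, stood at 0.24 and 0.05 in Het and at -0.08 and -0.05 in cKO. Its difference of -0.21 ± 0.08 (SE) was -0.12 without Het replicate 1. Nap1l5 and the amino acid transporter gene Slc38a4 had differences of -0.13 and -0.07, with separate groups. The probe set naming Gnas, which encodes a stimulatory G protein subunit, and its antisense RNA had a difference of -0.04.

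**Figure D2:**
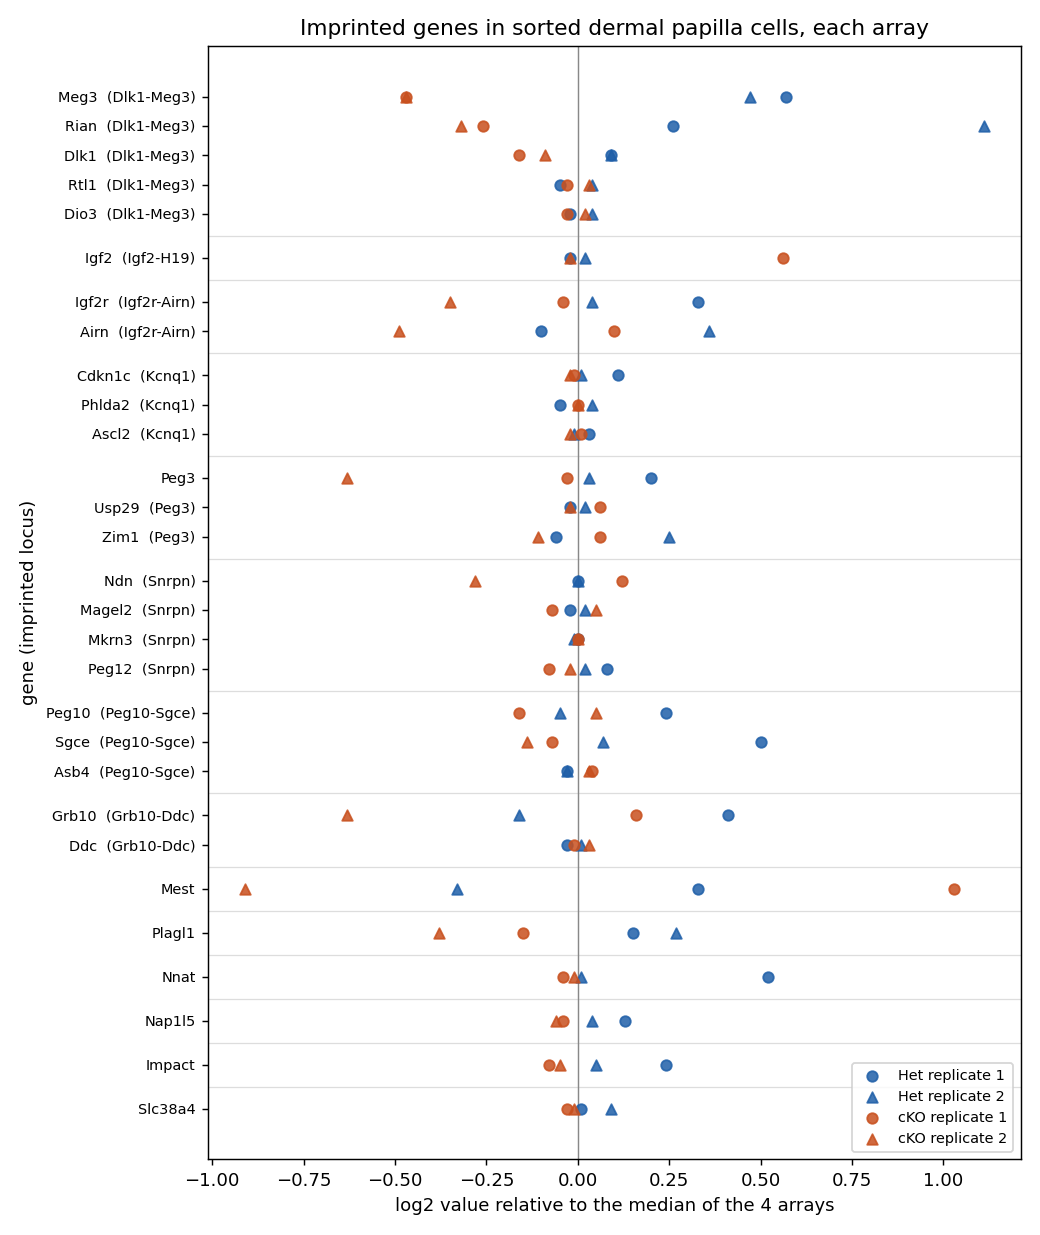
Centred log2 values of the 29 imprinted genes in each of the 4 arrays, ordered by locus, with Het arrays in blue and cKO arrays in orange, circles for replicate 1 and triangles for replicate 2. In 13 genes, among them Meg3, Rian, Dlk1 and Plagl1, both blue points lie right of both orange points, and Mest has both replicate 1 points to the right.

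Mest differed most between arrays of the same group, a measure that the choice of genes did not use. The gene is paternally expressed, encodes a protein of the alpha/beta hydrolase fold and is abundant in growing mesoderm. It stood at 0.33 and -0.33 in Het and at 1.03 and -0.91 in cKO. The cKO arrays thus held its highest and its lowest value, 1.94 apart, with the Het arrays between them, and the difference between the groups was 0.06 ± 0.77 (SE). The mean of the gaps within the groups was 1.29, a size reached by 0.0251% of all genes. Grb10 had a mean gap of 0.68, reached by 0.547% of genes, and Airn one of 0.52, reached by 1.6%. Replicate 1 was the higher array in both groups for Mest and for Grb10. For Rian the gap was 0.85 in Het, with replicate 2 the higher, and 0.06 in cKO. For Igf2 it was 0.04 in Het, with replicate 2 the higher, and 0.57 in cKO, with replicate 1 the higher. The median of the mean gap was 0.08 over the 29 genes and 0.08 over all genes. A mean gap of at least 0.3 was found for 6 of the 29 genes. The smallest of these 6, 0.31 for Igf2, was reached by 7.78% of all genes.

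**Figure D3:**
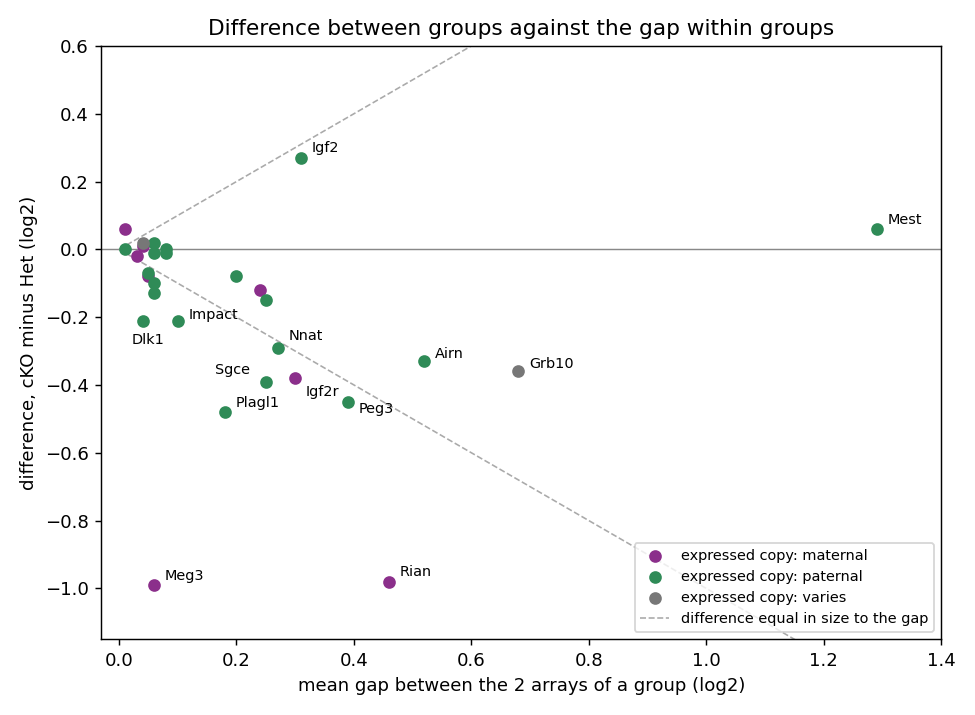
Difference between the groups (cKO minus Het, log2) against the mean gap between the 2 arrays of a group (log2) for the 29 imprinted genes, coloured by the copy known to be expressed; points beyond the dashed lines have groups that do not overlap. Meg3 combines a difference of -0.99 with a gap of 0.06, and Mest a difference of 0.06 with a gap of 1.29.

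Over the whole set, 21 of the 29 genes had a difference below 0 and 8 above 0, beside 47.7% of all genes below 0. The median difference was -0.10, and 0.00 over all genes. It was -0.08 without Meg3 and Rian. Groups did not overlap for 13 genes lower in cKO and for 1 gene higher, beside 15.6% and 17.8% of all genes. With a size of at least 0.2 as well there were 9 lower and 0 higher, beside 5.54% and 2.19% of all genes. These 9 were Meg3, Rian, Dlk1, Igf2r, Peg3, Sgce, Plagl1, Nnat and Impact. The differences of 14 of the 29 genes were under 0.1 in size. Because the set was chosen with differences of this contrast known, nothing is read from these shares.

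By the copy known to be expressed, 6 of 8 maternally and 14 of 19 paternally expressed genes had a difference below 0, beside 47.7% of all genes. Each group had a median of -0.10. Of the maternally expressed genes 4 were lower with separate groups (Meg3, Rian, Igf2r and Cdkn1c), and of the paternally expressed genes 9. By this rule 15.6% of all genes were lower. Within a locus, genes of opposite parental origin lay on the same side of 0 in some pairs and not in others. Meg3 and Dlk1 were both below 0, as were Igf2r and Airn, whose own value was -0.04 without cKO replicate 2. Asb4, at 0.06, lay opposite Sgce, at -0.39, and Peg10, at -0.15, though Peg10 was at -0.00 without Het replicate 1. Zim1, at -0.12, lay on the same side as Peg3, at -0.45, and opposite Usp29, at 0.02. Zim1 and Usp29 each turned direction with 1 array left out. Zim1 was at 0.04 without Het replicate 2, and Usp29 at -0.02 without cKO replicate 1. Rtl1 was at 0.00 beside Meg3 at -0.99. The median was -0.21 in the Dlk1-Meg3 locus, -0.05 in the Snrpn locus and -0.02 in the Kcnq1 locus.

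In the fit over all genes (limma, moderated test, two-sided, Benjamini-Hochberg adjustment), 0 of 19938 genes passed at an adjusted p of 0.05 (0%), and so no member passed. Sox2, the targeted gene, did not pass either, at an adjusted p of 0.345 (limma). That no member passed is therefore not read as a lack of difference. At an unadjusted p under 0.05 there were 1053 genes (5.28%), 680 of them lower in cKO (3.41%), and 4 members, all lower: Meg3, Rian, Dlk1 and Plagl1. These counts too come from the contrast on which the set was chosen. Of the 12 members with a difference of at least 0.2 in size, 3 did not move by over 1.5 times when any 1 array was left out, namely Meg3, Dlk1 and Plagl1. The same count was not made over all genes, so whether 3 of 12 is usual cannot be said. Igf2 without cKO replicate 1 and Grb10 without cKO replicate 2 turned their direction.

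**Figure D4:**
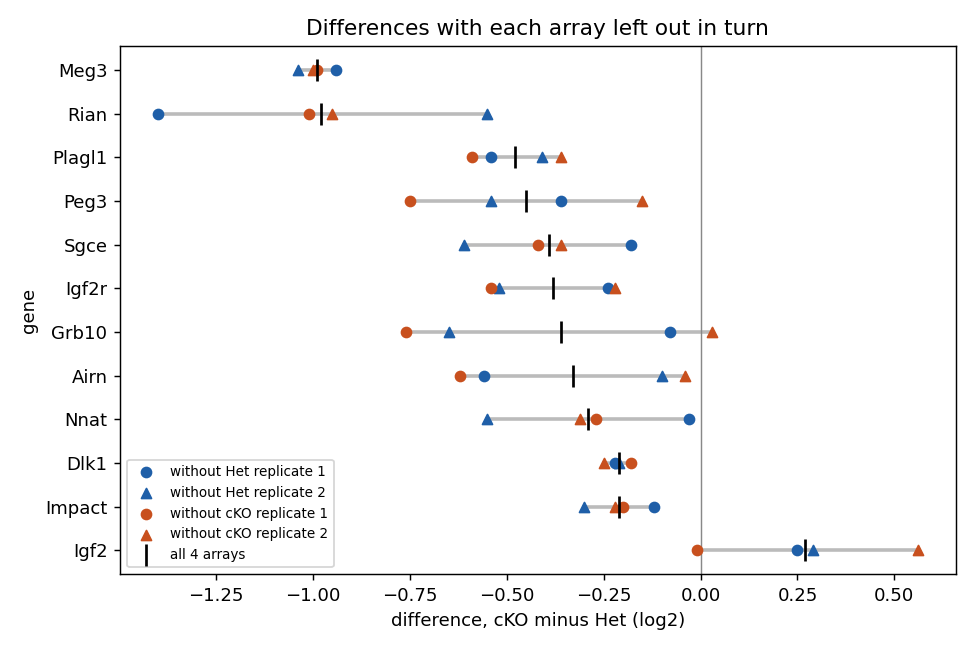
Difference (cKO minus Het, log2) of the 12 imprinted genes with a size of at least 0.2, from all 4 arrays (black bar) and with each array left out (symbols; the grey line spans them). Meg3 stays between -1.04 and -0.94, while Rian spans -1.40 to -0.55.

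A list of 39 other measured genes reported as imprinted in mouse, taken from general knowledge, had 21 below 0 and 18 above 0, with a median of 0.00. Groups did not overlap for 3 lower and 2 higher, beside 15.6% and 17.8% of all genes. Its largest differences were those of Cd81, a tetraspanin gene, at -0.32 ± 0.26 (SE) with overlapping groups, and Dhcr7, a sterol reductase gene, at -0.28 ± 0.08 (SE) with separate groups. Genes that set or keep imprints, 24 in number, had 12 below and 12 above 0 and a median of 0.00. Dnmt1, the maintenance DNA methyltransferase, stood at 0.37 and 0.01 in Het and at -0.01 and -0.41 in cKO, a difference of -0.41 ± 0.20 (SE). Uhrf1, which brings DNMT1 to newly copied DNA, stood at 0.09 and 0.20 in Het and at -0.09 and -0.35 in cKO, a difference of -0.36 ± 0.11 (SE). Zfp57 was at 0.07. No gene of these lists passed over all genes (smallest adjusted p 0.936 in each list, limma).

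The arrays also differed in other respects. Sox2, the targeted gene, was lower in cKO by a difference of -1.81 ± 0.06 (SE). The female-specific RNA Xist stood at -4.08 and -0.85 in Het and at 0.85 and 1.23 in cKO, and the Y-linked Eif2s3y was lower in both cKO arrays, with a difference of -1.81. Of 15 proliferation genes 13 were below 0, beside 47.7% of all genes. Their median difference was -0.07, and 0.10 without cKO replicate 2. Groups overlapped for 14 of the 15, and with separate groups 0 were lower and 1 was higher. Their median value was 0.10 in cKO replicate 1 and -0.25 in cKO replicate 2. The latter array held the lowest value of 13 of the 29 imprinted genes, among them Mest, Grb10, Peg3 and Airn, beside 25.6% of all genes. In Het replicate 2, where Rian was highest, the median of the keratinocyte markers was 0.38, against -0.05 to -0.01 in the other arrays. Of these 13 markers 12 were below 0, with a median difference of -0.13 that was 0.03 without Het replicate 2. With separate groups 4 were lower and 0 higher, beside 15.6% and 17.8% of all genes. Of 11 dermal fibroblast markers 9 were below 0, with a median difference of -0.27 that was 0.01 without Het replicate 2. Groups were separate for 4 lower and 2 higher, beside 15.6% and 17.8% of all genes. The 4 lower ones were at least 0.2 in size, beside 5.54% of all genes. Of 16 papilla markers 9 were below 0, with a median of -0.05. The papilla list includes Sox2, the targeted gene, and Itga9, the gene of the integrin used in the sort. Single papilla markers differed by more, with Vcan at -0.77 and Rspo3 at -0.66 against Ndnf at 1.08 and Wif1 at 0.75, all with separate groups. Median differences were -0.05 over 10 melanocyte markers, -0.11 over 10 Schwann and glial markers, 0.01 over 10 endothelial markers, -0.02 over 10 skeletal muscle markers and -0.03 over 8 adipocyte markers. The 10 Schwann and glial markers were mixed, with 6 below 0, 4 above 0 and overlapping groups for 7. Among them Egr2 was lower by a difference of -1.35 ± 0.23 (SE), larger than that of Meg3, and Fabp7 by -0.82 ± 0.08 (SE), both with separate groups. Whether defining markers of these cells were absent cannot be read from centred values. The part of cell mixture, sex or proliferation in the values of the imprinted genes was not tested.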

How the data were processed

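RNA of the sorted cells was amplified, biotin-labelled and hybridised to Affymetrix arrays, per the labels' protocols. The authors summarised the arrays by RMA, according to the submitters' processing notes. The deposited values were taken to be log2 because RMA gives that scale; the base is not stated. Software version, genome build and the reason for the centring are not given in the sources at hand. In all 28853 probe sets the 4 arrays had a median of 0 within 1e-06, so dim probe sets could not be filtered out. Probe sets naming 1 gene (21789) were averaged per gene; 1621 named several and 5443 had none listed. All 29 symbols were in a RefSeq table of GRCm38.p6, which gave the gene order.

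limma 3.58.1 in R 4.3.3 (lmFit, eBayes, group as the single term) was fitted over all 19938 genes and gave the standard errors. The code was also run on simulated normal noise with known differences, which does not show what can be detected in these arrays. Labels call the replicates biological without naming animals, so p-values reflect the spread of these samples, which may be technical. 7 kinds of alternative were run and are named in the closing section. Values per array were to be given for members with separate groups and a size of at least 0.2 and for Meg3, Rian, Dlk1, Igf2 and Mirg; of the further lists, the 2 largest differences were to be named. Airn, Zim1, Ndn, Peg10, Grb10, Mest, Zfp57, the named cell type markers, the sex-linked genes and the other probe sets described were added after their values were seen. Members, lists and tests were chosen with earlier results of these data known. matplotlib 3.10.9 under Python 3.11.15 drew the figures.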

Additional observations from a re-analysis of the deposited data

How the results depend on the processing

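No gene and no probe set passed at an adjusted p of 0.05 with any 1 array left out, with an unmoderated statistic, with a robust prior or after centring each array on its median (limma), and no gene passed with the median over probe sets. Unadjusted p-values under 0.05 numbered 769 to 1647 genes with 1 array left out and 937 with the unmoderated statistic. With only the probe sets above the median SD over all 4 arrays, 76 of 10341 genes and 20 of 14426 probe sets passed, and the median difference of the 18 members kept was -0.25; Meg3 and Rian were the 2 members that passed. That filter keeps features by a spread that holds the group difference itself, and it raised the prior degrees of freedom for genes from 1.52 to 25.7. With 1 array left out, the median difference of the imprinted genes ran from -0.14 to -0.07. Centring each array turned the sign of 2 members, Rtl1 and Mkrn3, both at 0.00.

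The replicate numbers are not said to pair arrays, and 2 pairs are too few to test it; over probe sets the gap between replicates 1 and 2 correlated at 0.31 between the groups. With the replicate block 0 genes and 0 probe sets passed, 1625 genes had an unadjusted p under 0.05 in place of 1053, and no difference changed. The missing expression level, 2 arrays per group and the 2 residual degrees of freedom limit all values.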

Other observations

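Small RNAs of the Snrpn locus gave narrow and even values. All 24 probe sets that name the snoRNA genes of the Snord116 cluster were higher in cKO with groups that did not overlap, by differences of 0.13 to 0.17, beside 18.9% of all probe sets higher by this rule. All 24 name the same 3 genes, Snord116l1, Snord116l2 and Gm26504, so they are not 24 separate measurements. Both probe sets of Mir344 were also higher in cKO, by 0.20 and 0.22. The protein genes of the locus, Ndn, Magel2, Mkrn3 and Peg12, had differences between -0.10 and 0.00. These values were chosen after they were seen, and they were not tested.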
